A study of Sus scrofa with 4 samples.

Results

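Secreted and membrane proteins enter the endoplasmic reticulum (ER), fold there and leave for the Golgi in coated vesicles, and the genes of this route were examined in pig aortic valve interstitial cells, the fibroblast-like cells that make the matrix of the valve leaflet. The members were chosen by gene symbol: subunits of the machinery that recognises, translocates, cleaves, glycosylates, folds, degrades and transports new secretory proteins. The choice gave 98 of the 14804 gene rows, and 97 of the 98 were measured, meaning that the authors' deposited table gives the gene an adjusted p-value; DERL3, with a mean of 0.857 normalized counts, was not. Of these 97, 83 reached the median level of the measured genes, 91.7 normalized counts.

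The study cultured primary cells of Sus scrofa aortic valve for 5 days and made 1 droplet single-cell library per group, aimed at about 2000 cells. The control received no donor. The second group received the nitric oxide (NO) donor detaNONOate at 150 µM for 5 days. A withdrawal group, given the donor for 3 days and none for the last 2, and a group given S-nitrosoglutathione at 200 µM for 5 days were not analysed here. The sources used here do not say how many animals the primary culture came from.

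Values were available for whole libraries, not cell by cell, as 3 columns per library, S1 to S3. Nothing in the labels ties a column to a separate culture, so the columns were read as parts of 1 library, each group has 1 library, and the treatment could not be tested. Intervals in brackets are exact 95% intervals of counting error and hold nothing on variation between cultures. The columns of a library lay close together for these genes: the variance between them over that of Poisson counts was 1.25 with the donor and 0.994 without. In whole-library values, fewer cells of a type and less RNA per cell cannot be told apart.

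As background, a ribosome that starts a secretory protein is stopped by the signal recognition particle and handed to the SEC61 channel, where the signal peptide is cut off and sugars are attached. Chaperones and disulfide isomerases fold the chain, and chains that fail are pulled back to the cytosol and destroyed by ER-associated degradation. COPII vesicles carry cargo forward, COPI vesicles return escaped ER proteins, and tethers and receptors sort what travels. Fibroblasts depend on this route for collagen, whose long rigid precursor needs help to fit into carriers.

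The route did not move as a block. A gene was called higher or lower when the log2 ratio of normalized counts, NO donor over control, was at least 0.5 in size. Of the 97 measured members 15 were higher and 26 lower, or 15.5% and 26.8%, beside 29.5% and 32.0% of the 13943 measured genes. Their median log2 ratio was −0.05 and that of all measured genes 0.00. At the authors' scaling of the libraries both shares lay below the background, the higher share by more than the lower. At a log2 ratio of 1 or more in size, 8 of the 97 members were higher and 14 lower. Both shares lay below those of all measured genes, 14.5% and 20.2%. Among genes at or above the median level, 14.5% and 26.5% of the members were called higher and lower, beside 27.7% and 28.0% of such genes.

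**Figure D1:**
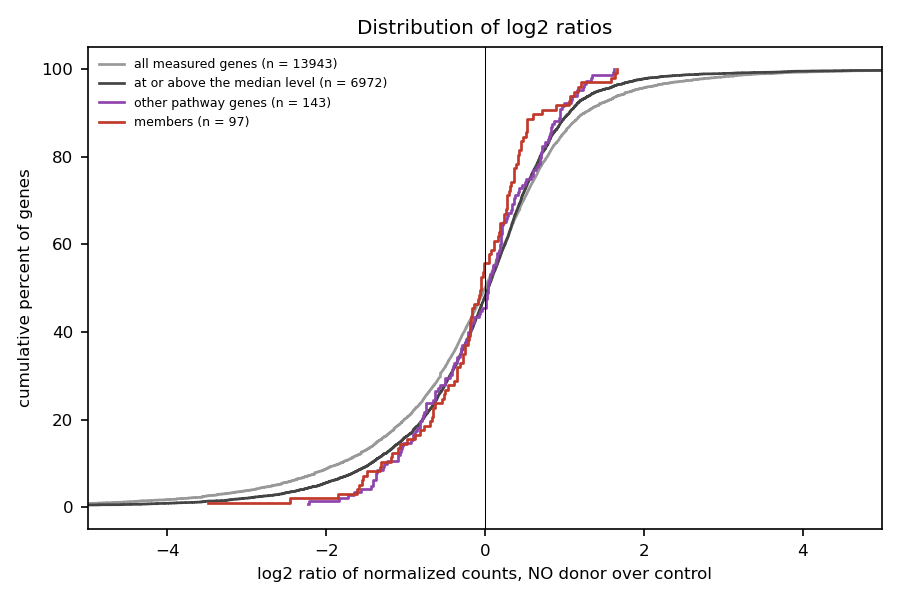
Cumulative percent of genes (vertical axis) by log2 ratio of normalized counts, NO donor over control (horizontal axis), for all 13943 measured genes, the 6972 at or above the median level, the 143 other pathway genes and the 97 measured members. The members' curve is steeper than the others on the higher side and crosses 50% near −0.05.

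The split of calls depended on the scaling of the libraries. The authors' scaling puts the median gene at 0.00, and scaling to total counts adds 0.60 to every log2 ratio. Then 52 of the 97 measured members were higher, a share near the 53.9% of measured genes. The 12 lower members were a share below the 18.6% of measured genes. At this scaling the lower share was thus the one farther below the background. The higher share of the members called thus went from 36.6% to 81.25%, and that of all measured genes called from 47.9% to 74.3%. Ratios below are at the authors' scaling and therefore relative to the median gene. Counts of called genes in the groups below stand beside 29.5% higher and 32.0% lower over all measured genes. Under total count scaling they stand beside 53.9% and 18.6%. The same dependence showed in the sum over the measured members, which was 107828 normalized counts in control cells and 80920 with the donor, whereas the members took 1.23% (1.23 to 1.24) of all control counts and 1.40% (1.39 to 1.40) of all NO donor counts. Much of the drop in the sum came from SSR4, at 14936.5 in control cells and 2715 with the donor. Without SSR4 the members took 1.06% (1.06 to 1.07) of all control counts and 1.35% (1.35 to 1.36) of all NO donor counts.

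The members' columns separated about as often as those of other genes at such levels. All 3 NO donor columns lay above all 3 control columns for 39 of the 97 members, a share above the 36.7% of measured genes. They lay below them for 44, a share above the 36.3% of measured genes, and the columns overlapped for 14. Among genes at or above the median level the shares were 44.4% and 41.4%, and of the 83 members there 34 lay above and 39 below. In the authors' deposited table, 30 of 97 members were higher at an adjusted p below 0.05, above the 24.7% of measured genes. Another 36 were lower, a share above the 26.4% of measured genes. These 2 backgrounds cover all measured genes, not only those at such levels. The adjusted p compares columns, not cultures.

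**Figure D2:**
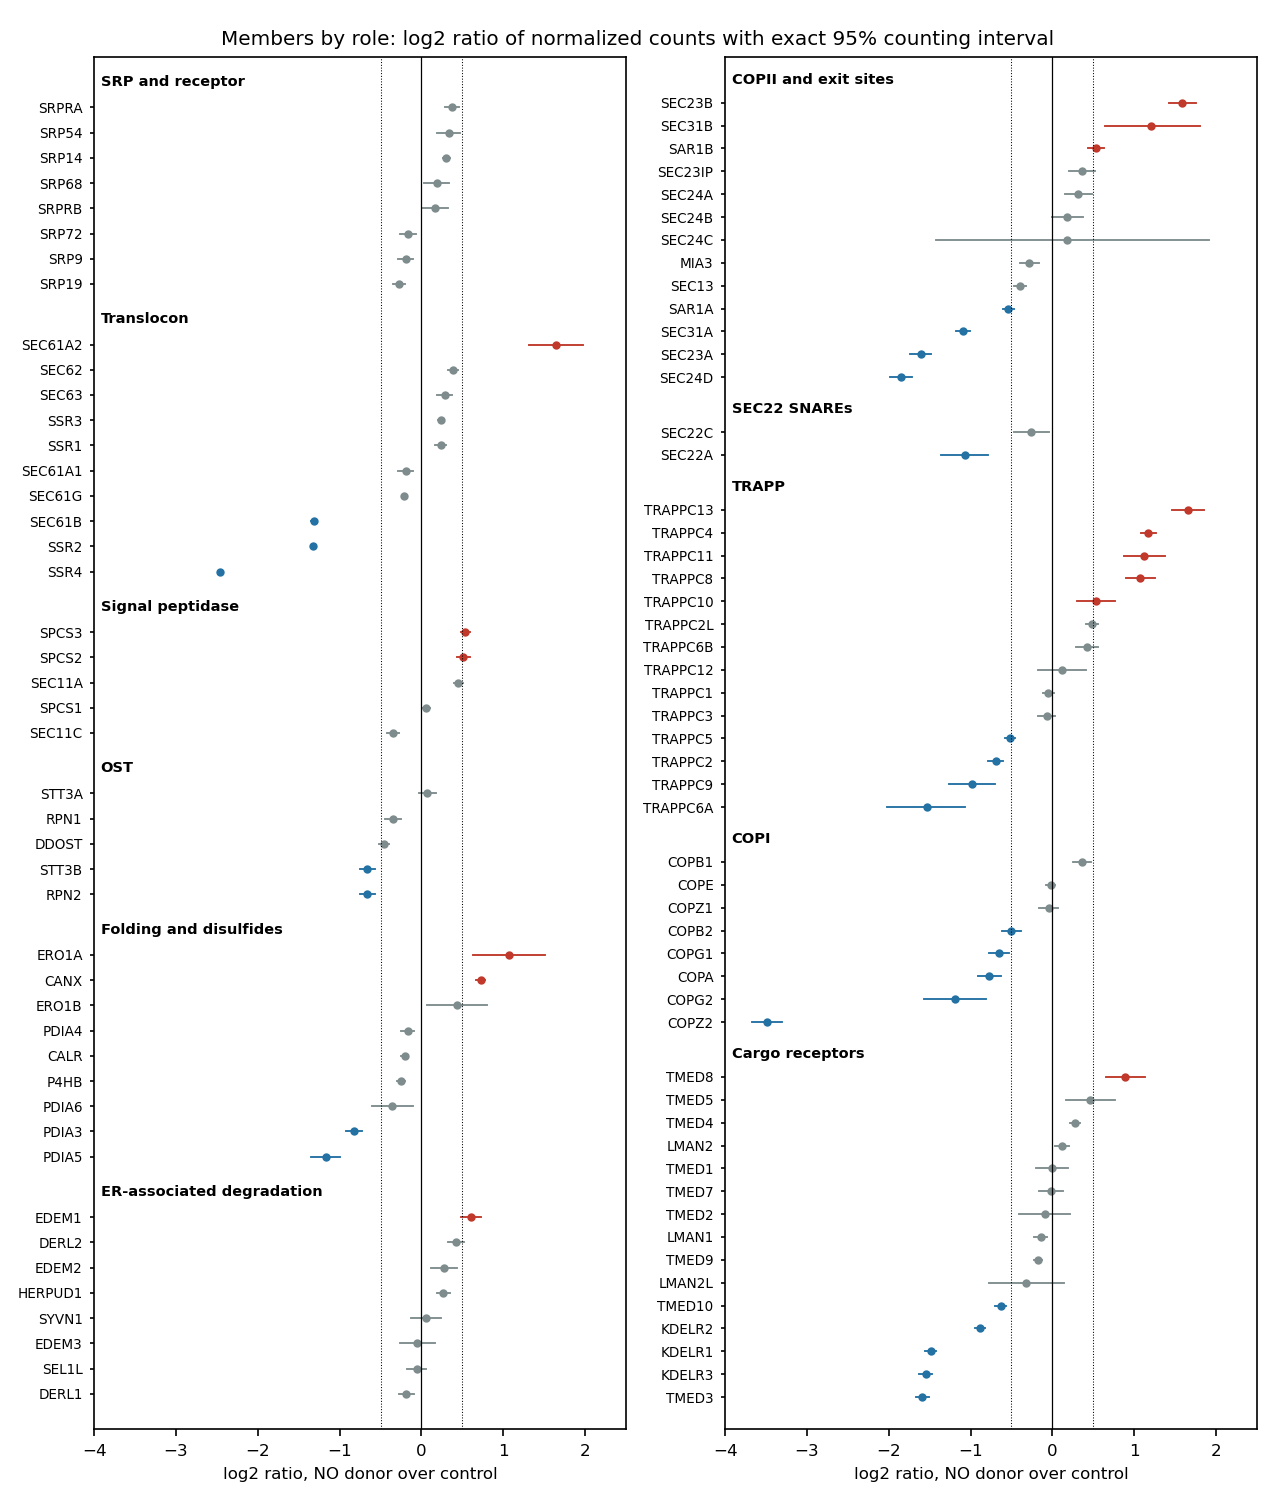
Log2 ratio of normalized counts, NO donor over control (horizontal axes), for the 97 measured members in 11 role groups; points are ratios, lines are exact 95% counting intervals, red marks a log2 ratio of 0.5 or more, blue −0.5 or less, grey the rest, and dotted lines stand at 0.5 and −0.5. COPZ2 lies farthest to the left at −3.49, with SSR4 at −2.46, and TRAPPC13 farthest to the right at 1.66.

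Genes that recognise the signal peptide stayed close to the median gene. None of the 8 measured genes of the signal recognition particle and its receptor was called in either direction, with a median log2 ratio of 0.17, whereas under total count scaling 5 were higher and the median was 0.77. SRPRA, the receptor subunit that docks the particle on the ER membrane, had 592, 651 and 638 normalized counts in the control columns and 836, 789 and 815 in the NO donor columns, a log2 ratio of 0.37 (0.28 to 0.46). SRP54, the GTPase that binds the signal peptide, had a log2 ratio of 0.33 and SRP14, which with SRP9 slows the ribosome, 0.30. On the other side SRP19, an assembly factor of the particle, had −0.27 (−0.35 to −0.20) and SRP9 −0.19. For each of the 8 genes the 3 columns of a library lay on the same side of the other library's 3, 5 above and 3 below. All 8 lay at or above the median level, where 44.4% of genes had columns apart above and 41.4% below.

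The translocon divided by subunit. SEC61 forms the protein-conducting channel and the SSR genes encode the translocon-associated protein complex, which helps some signal peptides to open it. SSR4, the delta subunit, had 14703, 15147 and 14937 normalized counts in the control columns and 2733, 2709.8 and 2703 in the NO donor columns. The libraries did not overlap, and SSR4 was 5.50-fold lower (5.38 to 5.62); loss of SSR4 in people causes a glycosylation disorder. SSR2, the beta subunit, was 2.50-fold lower (2.45 to 2.55), from between 8907 and 9479.5 in the control columns to between 3500.1 and 3846. By contrast SSR1 and SSR3, the alpha and gamma subunits of the same complex, had log2 ratios of 0.23 (0.17 to 0.30) and 0.24 (0.21 to 0.28). SSR4 lies on chromosome X of Sscrofa11.1 from 124537545 to 124541635 and overlaps IDH3G, which is annotated on the opposite strand. IDH3G had a level of 383 in control cells and 373 with the donor, and the part of its reads in the counts of SSR4 was not tested.

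Within the channel itself, SEC61B, a small subunit, was 2.48-fold lower (2.41 to 2.54), at 6258, 6326 and 6389 in the control columns and 2555, 2612 and 2498 in the NO donor columns. SEC61G, the other small subunit, had a log2 ratio of −0.21 (−0.24 to −0.18). The pore subunit comes from a pair of genes that parted. SEC61A1 had a log2 ratio of −0.19 (−0.29 to −0.10), while SEC61A2, the second pore gene, had 41.7, 34.0 and 42.1 normalized counts in the control columns and 121, 118 and 128 in the NO donor columns, 3.11-fold higher (2.50 to 3.91). SEC62 and SEC63, partners that help chains to enter after translation, had log2 ratios of 0.39 and 0.28. The translocon group held 1 gene called higher and 3 lower of 10 measured, against 5 and 3 under total count scaling, and its summed level was 44405 in control cells and 23558 with the donor, with SSR4, SSR2 and SEC61B making up the difference.

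Signal peptidase cuts the signal peptide from the entering chain. Of its 5 genes 2 were higher (40%, beside 29.5% of all measured genes) and none lower, against 4 and none under total count scaling. SPCS3, an accessory subunit that the enzyme needs, had 1524, 1571 and 1566 normalized counts in the control columns and 2135, 2328 and 2296 in the NO donor columns, a log2 ratio of 0.53 (0.48 to 0.59). SPCS2 had 0.51 and SPCS1 0.05. The catalytic subunit is encoded by SEC11A or SEC11C, and these had log2 ratios of 0.45 (0.39 to 0.51) and −0.35 (−0.42 to −0.28), or 1.05 and 0.25 under total count scaling.

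The oligosaccharyltransferase transfers the N-linked sugar tree to the chain. It was lower in 2 of 5 genes (40%, beside 32.0% of all measured genes) and higher in none. Under total count scaling 1 was higher and none lower. RPN2, a structural subunit, had 783, 808 and 789 normalized counts in the control columns and 501, 527 and 477 in the NO donor columns, 1.58-fold lower (1.48 to 1.69). STT3B, the catalytic subunit that acts on sites skipped during translation, was also 1.58-fold lower, whereas STT3A, the catalytic subunit docked on the translocon, had a log2 ratio of 0.07 (−0.04 to 0.18), an interval that held 0. DDOST and RPN1 had −0.46 and −0.35.

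Folding genes were mixed, with 2 of 9 higher and 2 lower, against 3 and 1 under total count scaling. CANX, calnexin, the membrane lectin chaperone of glycoproteins, had 1389.6, 1436 and 1502 normalized counts in the control columns and 2314, 2439.6 and 2401 in the NO donor columns, 1.65-fold higher (1.59 to 1.71). CALR, calreticulin, its soluble counterpart, had 3083, 3119.7 and 3131 against 2647, 2679 and 2773, a log2 ratio of −0.21 (−0.25 to −0.16). PDIA3, the disulfide isomerase that works with both lectins, was 1.77-fold lower (1.65 to 1.90). The columns of the libraries overlapped for none of these 3 genes, as for most genes at or above the median level. Under total count scaling the log2 ratio of CALR was 0.39 and that of PDIA3 −0.23.

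Among the other disulfide isomerases, PDIA5 was 2.25-fold lower (1.99 to 2.56), from between 252 and 261 in the control columns to between 108 and 124 in the NO donor columns. P4HB, which is both an isomerase and a subunit of collagen prolyl 4-hydroxylase, had a log2 ratio of −0.25 and PDIA4 −0.17. ERO1A, the oxidase that recharges the isomerases, was 2.09-fold higher (1.55 to 2.85) at low levels, with 21.5, 23.1 and 25.9 in the control columns and 60.3, 51.9 and 36.2 in the NO donor columns. Its paralogue ERO1B had a log2 ratio of 0.43 (0.07 to 0.80).

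Genes of the ER stress response are known for a promoter element, CCAAT and CCACG set 9 bases apart, which the factors ATF6 and NF-Y bind together in human cells. The element was searched on both strands in the 300 bases upstream of the annotated gene start in the RefSeq annotation of Sscrofa11.1. It lay in 4 of 98 members, DERL3, PDIA6, CALR and CANX, or 4.08%, and in 14 of 20611 protein-coding genes with such a window, or 0.0679%. Its last 5 bases alone, CCACG, were found in 55.1% of the members' windows 44.3% of those of measured genes and 38.6% of all, with a median GC content of 60.7%, 59.7% and 56.3%. A match is a description of the letters and not evidence of binding. The element is printed in capitals with up to 40 bases on each side, 5′ to 3′ on the gene's strand, for the 3 measured members that hold it and for HSP90B1 and XBP1, which with CRELD2 are the 3 other genes of the pathway that hold it.
CANX, chr2:78915916-78916014, minus strand: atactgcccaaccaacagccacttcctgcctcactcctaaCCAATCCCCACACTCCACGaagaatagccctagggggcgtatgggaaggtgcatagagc
CALR, chr2:66102250-66102348, minus strand: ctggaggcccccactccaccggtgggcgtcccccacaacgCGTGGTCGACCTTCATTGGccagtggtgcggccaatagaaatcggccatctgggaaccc
PDIA6, chr3:125751877-125751975, plus strand: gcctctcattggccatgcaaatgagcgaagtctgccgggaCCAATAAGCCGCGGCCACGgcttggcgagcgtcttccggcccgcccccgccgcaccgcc
HSP90B1, chr5:80531017-80531191, minus strand: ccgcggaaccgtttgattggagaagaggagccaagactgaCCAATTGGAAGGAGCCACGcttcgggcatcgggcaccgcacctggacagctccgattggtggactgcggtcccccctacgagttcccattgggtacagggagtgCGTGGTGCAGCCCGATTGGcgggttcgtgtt
XBP1, chr14:46016550-46016648, minus strand: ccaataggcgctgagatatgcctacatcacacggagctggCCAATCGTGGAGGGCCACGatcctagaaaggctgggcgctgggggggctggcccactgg

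Genes that share the full element did not share a direction. In CALR and in the second copy of HSP90B1 the element reads on the opposite strand. CANX at 0.72 and HSP90B1, an ER chaperone of the heat shock family, at 0.61 (0.57 to 0.65) were higher. CALR at −0.21 and PDIA6, a disulfide isomerase, at −0.36 (−0.61 to −0.10) were not called, nor was CRELD2, a helper of disulfide formation, at 0.20 (0.05 to 0.34), and XBP1, a transcription factor of the stress response, was lower at −1.41 (−1.50 to −1.32). Over the 11 measured genes of the table with the element, 4 were higher and 2 lower, beside 29.5% and 32.0% of all measured genes. The median over the 11 was −0.07. Under total count scaling CANX, HSP90B1, CRELD2, CALR and PDIA6 had log2 ratios of 1.32, 1.21, 0.79, 0.39 and 0.24. XBP1 alone of these pathway genes was then negative, at −0.81. Only exact matches in this window were sought, and HSPA5 and HERPUD1 were not among the genes found.

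Of the 8 measured genes of ER-associated degradation 1 was higher and none lower, against 7 and none under total count scaling. EDEM1, a lectin-like protein that marks failed glycoproteins for removal, had 305, 305 and 314 normalized counts in the control columns and 447, 491 and 472 in the NO donor columns, 1.52-fold higher (1.40 to 1.66). DERL2, a channel component, had a log2 ratio of 0.42 (0.32 to 0.52) and its paralogue DERL1 −0.19 (−0.28 to −0.09). The ligase SYVN1 and its partner SEL1L had 0.05 (−0.13 to 0.24) and −0.06 (−0.17 to 0.06), intervals that held 0. HERPUD1, a scaffold of the ligase and a common readout of ER stress, had 0.27 (0.18 to 0.35).

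The COPII coat, which buds cargo vesicles from the ER, held pairs of paralogues with ratios of opposite sign, and 3 of 13 genes were higher and 4 lower, against 7 and 2 under total count scaling. SEC23 and SEC24 form its inner layer, SEC13 and SEC31 its outer layer, and SAR1 is the GTPase that starts assembly. SEC23A, whose loss in people causes a skeletal and skull disorder, had 608, 605 and 593 normalized counts in the control columns and 186, 197 and 208 in the NO donor columns. It was 3.05-fold lower (2.79 to 3.34). SEC23B, the second SEC23 gene, had 155, 165 and 137 in the control columns and 471, 445 and 448 in the NO donor columns, a log2 ratio of 1.58 (1.42 to 1.75). No column of either gene overlapped between the libraries, which also held for most genes at or above the median level.

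SEC24D, a cargo adaptor whose loss in people gives a brittle bone disorder, had 628, 631 and 599 normalized counts in the control columns and 165, 178 and 172 in the NO donor columns, 3.60-fold lower (3.28 to 3.96). SEC24A and SEC24B, adaptors of the other SEC24 subclass, had log2 ratios of 0.32 (0.15 to 0.48) and 0.18 (−0.01 to 0.38), and SEC24C was too low to compare, with at most 5.40 normalized counts in any column. SEC31A had a log2 ratio of −1.09, from between 952 and 992 to between 452 and 464. SEC31B, present at low levels, was 2.31-fold higher (1.57 to 3.50), at 10.8, 12.1 and 17.3 in the control columns and 30.9, 36.5 and 27.1 in the NO donor columns.

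The GTPase pair differed too. SAR1A had 1376, 1239 and 1317 normalized counts in the control columns and 864, 911 and 927 in the NO donor columns, a log2 ratio of −0.54 (−0.61 to −0.47), which became 0.06 under total count scaling. SAR1B, mutated in a human fat absorption disorder, had 471, 496 and 506 against 724, 688 and 717, a log2 ratio of 0.53 (0.43 to 0.63). MIA3, the exit-site protein that loads collagen into carriers, had −0.28 (−0.39 to −0.17) and SEC13 −0.39 (−0.47 to −0.32), so neither was called. SAR1B and SEC24A overlap each other on opposite strands of chromosome 2, and SEC24D overlaps MYOZ2 and SYNPO2, which are annotated on the strand opposite to it. SYNPO2 had a log2 ratio of −3.27, at a level of 699.8 in the control. The sources used here do not say whether counting used strand, so reads of such partners cannot be told apart.

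**Figure D3:**
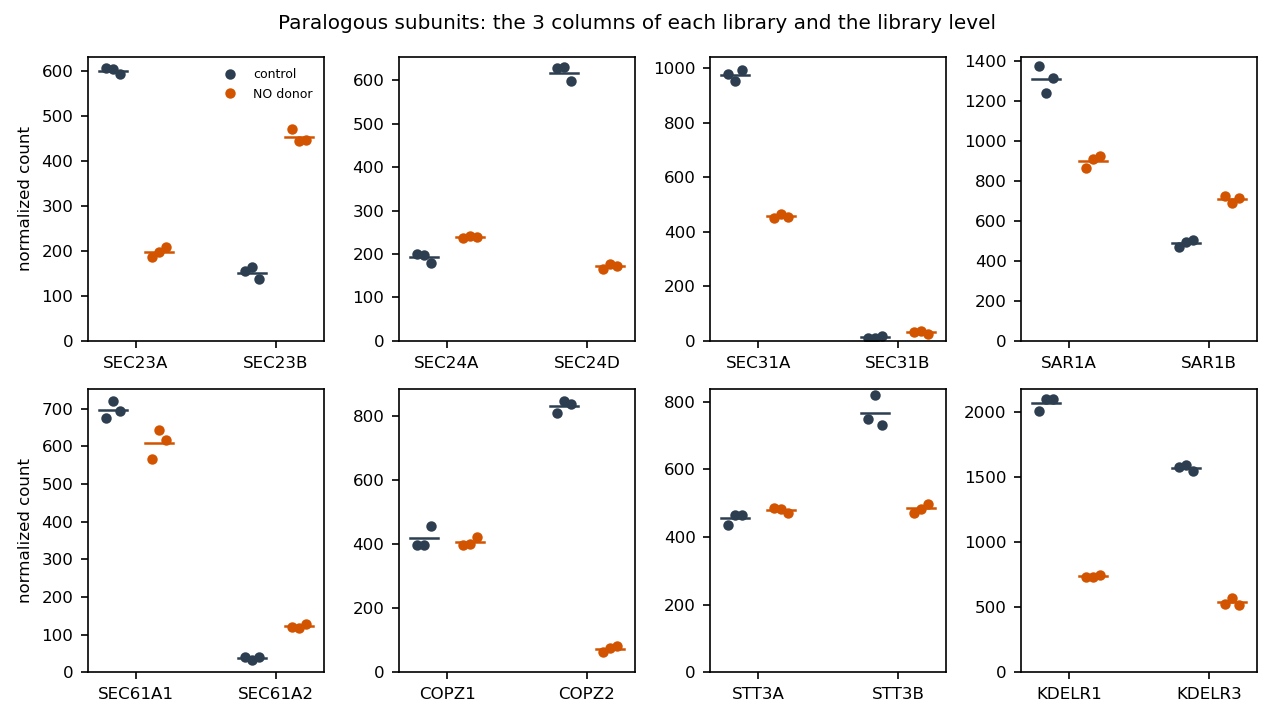
Normalized counts (vertical axes, from 0) of 8 pairs of paralogous subunits; points are the 3 columns of each library, dark for control and orange for the NO donor, and bars mark the level of the library over its 3 columns. SEC23A, SEC31A and SAR1A sit lower and SEC23B, SEC31B and SAR1B higher in the NO donor library (SAR1A at a log2 ratio of 0.06 under total count scaling), COPZ2 drops from 832 to 74.2 beside a level COPZ1, and KDELR1 and KDELR3 are lower together.

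A difference between the log2 ratios of paralogues does not depend on how the libraries are scaled, and it was taken for 15 pairs of members that can fill the same place; the pairs were listed after the values had been seen. The values describe these pairs and test nothing, and their 95% intervals (Woolf's method) cover counting error only. SEC23B stood 3.20 log2 units above SEC23A (2.99 to 3.40), SEC31B 2.30 above SEC31A (1.74 to 2.86), SEC61A2 1.83 above SEC61A1 (1.50 to 2.16) and SAR1B 1.07 above SAR1A (0.95 to 1.19). For SEC24D minus SEC24A the value was −2.16 (−2.37 to −1.96). The smallest differences were those of SEC24B minus SEC24A, at −0.13 (−0.38 to 0.12), and of KDELR3 minus KDELR1, at −0.06 (−0.16 to 0.04).

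Of the SEC22 genes, SEC22A was 2.10-fold lower (1.73 to 2.57), from between 91.5 and 111 normalized counts to between 42.2 and 51.0. SEC22C had a log2 ratio of −0.26 (−0.47 to −0.04). SEC22B, the family member known as the SNARE of ER to Golgi transport, was not analysed here.

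The TRAPP complexes, which tether vesicles and activate RAB1 at the Golgi, were called in both directions, with 5 of 14 genes higher and 4 lower, against 10 and 1 under total count scaling. TRAPPC13 had 105, 89.9 and 115 normalized counts in the control columns and 318, 337 and 325 in the NO donor columns, 3.15-fold higher (2.76 to 3.62). TRAPPC8 was 2.11-fold higher (1.86 to 2.38) and TRAPPC11 2.17-fold (1.83 to 2.59). These 3 and TRAPPC12 are the subunits particular to the TRAPPIII complex, and TRAPPC12 had a log2 ratio of 0.11 (−0.18 to 0.41). This subset was picked out after its values had been seen. Of the subunits particular to TRAPPII, TRAPPC10 had 0.53 (0.30 to 0.77) and TRAPPC9 −0.98 (−1.27 to −0.70).

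In the core that the TRAPP complexes share, TRAPPC4 was 2.25-fold higher (2.11 to 2.40), at 482, 498 and 534 in the control columns and 1151, 1126 and 1141 in the NO donor columns. TRAPPC2 was 1.62-fold lower (1.52 to 1.73), while TRAPPC2L, its relative, had a log2 ratio of 0.48 (0.41 to 0.55). TRAPPC6A was 2.90-fold lower (2.10 to 4.05) and TRAPPC6B, which can stand in its place, had 0.42 (0.28 to 0.56). TRAPPC5 had −0.52 (−0.57 to −0.46), which turned to 0.08 under total count scaling. TRAPPC1 and TRAPPC3 had intervals that held 0.

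The COPI coat, which returns material from the Golgi to the ER, was lower in 5 of 8 genes and higher in none, against 2 lower and 3 higher under total count scaling. COPZ2, the second gene of the zeta subunit, had 808, 847 and 837 normalized counts in the control columns and 63.5, 76.3 and 83.0 in the NO donor columns. It was 11.2-fold lower (9.87 to 12.8), the lowest ratio of any measured member. COPZ1, the zeta subunit found widely in tissues, had 398, 398 and 457 against 398, 399 and 424, a log2 ratio of −0.05 (−0.16 to 0.07), and the columns overlapped. The difference between the pair was −3.44 log2 units (−3.66 to −3.23), COPZ2 minus COPZ1.

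The other coat subunits differed less. COPA, the alpha subunit, was 1.71-fold lower (1.54 to 1.89), COPG1 1.57-fold (1.45 to 1.71), COPG2 2.27-fold (1.75 to 2.96) and COPB2 1.42-fold (1.31 to 1.53), with COPB2 at the edge of the call and at 0.10 under total count scaling. COPE, the epsilon subunit, had a log2 ratio of −0.02 (−0.07 to 0.04), and COPB1 had 0.36 (0.26 to 0.47); under total count scaling COPE, COPZ1 and COPB1 had 0.58, 0.55 and 0.96. Under total count scaling COPZ2 and COPG2 remained below −0.5.

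Among cargo receptors 5 of 15 genes were lower and 1 higher, against 3 lower and 7 higher under total count scaling. The KDEL receptors catch ER chaperones that escape to the Golgi and send them back in COPI vesicles, and all 3 genes were lower. KDELR1 had 2011, 2104 and 2100.2 normalized counts in the control columns and 737, 732 and 752 in the NO donor columns, 2.80-fold lower (2.68 to 2.94). KDELR3 was 2.92-fold lower (2.77 to 3.09) and KDELR2 1.85-fold (1.77 to 1.93). Under total count scaling the log2 ratios of KDELR1, KDELR3 and KDELR2 were −0.89, −0.95 and −0.29.

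The p24 proteins, encoded by TMED genes, select cargo for COPII and COPI vesicles. TMED3 had 1712, 1668 and 1642 normalized counts in the control columns and 555, 548 and 563 in the NO donor columns, 3.01-fold lower (2.85 to 3.18). TMED10 was 1.55-fold lower (1.48 to 1.62), and TMED8, a relative at lower counts, 1.85-fold higher (1.57 to 2.19). TMED1, TMED2 and TMED7 had intervals that held 0. LMAN1, the lectin that carries coagulation factors and other glycoproteins out of the ER, had a log2 ratio of −0.14 (−0.22 to −0.07), and LMAN2 0.12 (0.03 to 0.21).

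The other genes of the pathway, a list outside the symbol rule, were set beside the members. Of its 152 symbols 143 had a row. Among them 38 genes were higher, or 26.6%, and 41 lower, or 28.7%, and the middle log2 ratio was 0.04. Scaled to total counts, 81 were higher and 16 lower with a middle value of 0.64. The shares lay near the background of 29.5% and 32.0%, and the groups within the list differed in direction.

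**Figure D4:**
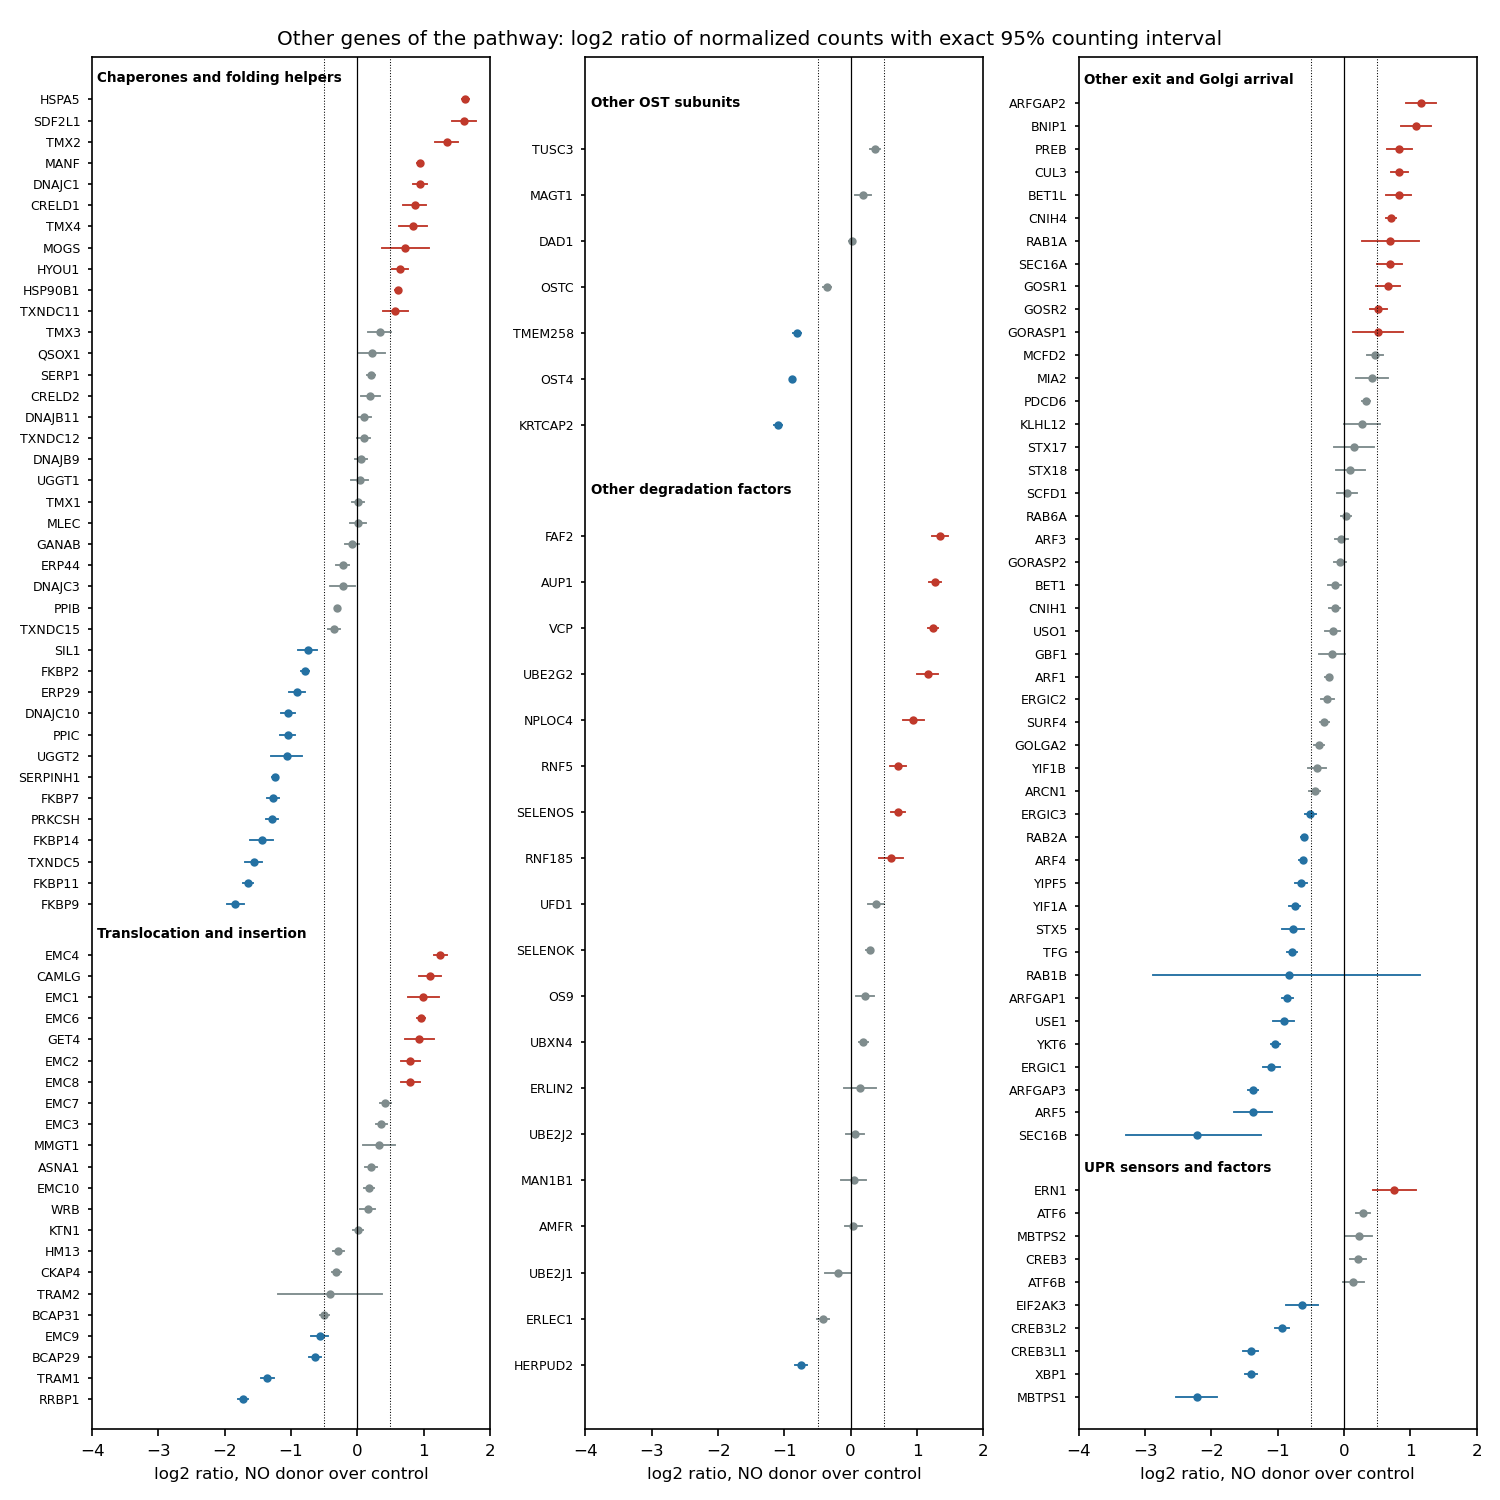
Log2 ratio of normalized counts, NO donor over control (horizontal axes), for the 143 other genes of the pathway in 6 groups, with exact 95% counting intervals; red marks 0.5 or more, blue −0.5 or less and grey the rest. HSPA5 heads the chaperones at 1.63 and FKBP9 ends them at −1.84, and 8 of the 19 degradation factors are red against 1 blue.

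Chaperones and folding helpers held 11 genes higher and 13 lower of 39, against 22 and 7 under total count scaling. HSPA5, known as BiP, the main Hsp70 chaperone of the ER and sensor of unfolded chains, had 1565, 1621 and 1521 normalized counts in the control columns and 4645, 4996 and 4908 in the NO donor columns, 3.10-fold higher (2.99 to 3.21). SDF2L1, which works with HSPA5, was 3.05-fold higher (2.69 to 3.46), TMX2, a membrane thioredoxin, 2.55-fold (2.26 to 2.87), and MANF, a small ER protein induced by stress, 1.92-fold (1.87 to 1.98). HYOU1, the exchange factor of HSPA5, was 1.57-fold higher. DNAJB9 and DNAJB11, co-chaperones of HSPA5, had log2 ratios of 0.06 and 0.10.

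The 13 lower folding genes held other partners of HSPA5, among them DNAJC10, a reductase, 2.06-fold lower, and SIL1, an exchange factor, 1.68-fold lower. They also held the glycoprotein folding genes PRKCSH, a glucosidase subunit, and UGGT2, 2.43-fold and 2.09-fold lower. The 5 FKBP genes on the list, prolyl isomerases of the ER, were all lower, beside 32.0% of all measured genes. Under total count scaling 4 of them were lower, beside 18.6%. This subset was picked out after its values had been seen, and FKBP10 was not on the list. FKBP9 had 771, 735 and 700.1 normalized counts in the control columns and 213, 192 and 210.4 in the NO donor columns, 3.57-fold lower (3.28 to 3.89), and FKBP11 was 3.13-fold lower (2.98 to 3.29). SERPINH1, the collagen chaperone HSP47, was 2.36-fold lower (2.29 to 2.44), and TXNDC5, a disulfide isomerase studied in fibrosis, 2.95-fold lower (2.70 to 3.22).

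Other degradation factors were higher in 8 of 19 genes and lower in 1 (42.1% and 5.26%, beside 29.5% and 32.0% of all measured genes). Under total count scaling 16 were higher and none lower. FAF2, which recruits the extraction machinery to the ER, was 2.53-fold higher (2.33 to 2.76), and VCP, the ATPase that pulls chains from the membrane, had 615, 679 and 632 normalized counts in the control columns and 1496, 1514 and 1540.2 in the NO donor columns, 2.36-fold higher (2.23 to 2.50). AUP1 was 2.41-fold higher and UBE2G2, a ubiquitin-conjugating enzyme of the pathway, 2.23-fold. HERPUD2 was 1.68-fold lower.

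Membrane insertion and translocation factors were higher in 7 of 22 genes and lower in 4, against 14 and 2 under total count scaling. The ER membrane complex is an insertase for membrane helices. Its subunits were higher in 5 of 10 and lower in 1, beside 29.5% and 32.0% of all measured genes. Under total count scaling 9 were higher and none lower, beside 53.9% and 18.6%. This subset too was named after its values had been seen. EMC4 was 2.38-fold higher (2.22 to 2.54) and EMC6 1.95-fold (1.88 to 2.03), while EMC9 was 1.48-fold lower, with a log2 ratio of 0.03 under total count scaling. RRBP1, the ribosome receptor of rough ER sheets, had 1820.1, 1768 and 1708 normalized counts in the control columns and 511, 544 and 547 in the NO donor columns, 3.30-fold lower (3.13 to 3.48), and TRAM1, a translocon partner, was 2.56-fold lower (2.39 to 2.74). The small oligosaccharyltransferase subunits KRTCAP2, OST4 and TMEM258 were 2.14-fold, 1.84-fold and 1.76-fold lower, and of the 7 other subunits in all 3 were lower and none higher, against none lower and 3 higher under total count scaling.

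Factors of ER exit and Golgi arrival were higher in 11 of 46 genes and lower in 15, against 21 and 4 under total count scaling. ARFGAP3, which releases ARF1 from COPI vesicles, was 2.59-fold lower (2.45 to 2.74), and ARFGAP2, with a like role, 2.24-fold higher (1.91 to 2.63). SEC16A, the scaffold of exit sites, was 1.61-fold higher (1.42 to 1.83), and TFG, another exit-site protein, 1.72-fold lower (1.63 to 1.81). ARCN1, the delta subunit of COPI, had a log2 ratio of −0.44.

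Of the 10 sensors and factors of the unfolded protein response 5 were lower and 1 higher; scaled to total counts, 3 were lower and 5 higher. XBP1 had 1125, 1139.5 and 1102 normalized counts in the control columns and 399.8, 417 and 449.6 in the NO donor columns, 2.66-fold lower (2.50 to 2.83). CREB3L1 and CREB3L2, ER-anchored factors that raise secretory genes, were 2.66-fold (2.45 to 2.88) and 1.91-fold lower (1.78 to 2.05); in mouse cartilage CREB3L2 is known to drive SEC23A. MBTPS1, the protease that releases such factors, was 4.67-fold lower (3.78 to 5.79). ATF6 had a log2 ratio of 0.28, ERN1, the sensor also called IRE1, was 1.69-fold higher (1.36 to 2.12), and EIF2AK3, the sensor PERK, 1.55-fold lower (1.32 to 1.83), with a log2 ratio of −0.04 under total count scaling.

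The libraries held 21289316 counts for the NO donor and 21807024 for the control, between 6486628 and 8067661 per column. All 12 markers of valve interstitial cells had counts in both libraries, and 11 were lower with the donor. Their summed level was 264009 to 266982 in the control columns and 41862 to 44176 in the NO donor columns. VIM, vimentin, at 75713 in control cells and 26546 with the donor, had the smallest drop of the 11, a log2 ratio of −1.51. ACTA2 went from 57046 to 263, a log2 ratio of −7.76, and COL1A1 from 35938 to 1787, at −4.33. POSTN had −7.62, with 3 counts in the NO donor library, and THY1 −3.82. PDGFRB, the marker that was not called, had 0.04. Of 9 endothelial markers 3 had a row, 1 higher and 2 lower, and summed to between 736 and 820.0 in the control columns and between 422 and 449 in the NO donor columns; no row for the defining markers CDH5 and VWF was analysed here. Of 10 leukocyte markers 4 had a row, 3 higher and none lower, and summed to between 162 and 166 and between 161 and 179, mostly CD14. Of 8 cardiomyocyte markers 2 had a row, NPPB at 9.63 in control cells and 404 with the donor and TNNI3 at 15.2 and 9.52, and of 7 epithelial markers none had. The part of such cells in the ratios above was not tested.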

How the data were processed

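Single-cell libraries of cultured pig valve cells were sequenced, per the labels; Cell Ranger, Seurat 3.0, DESeq2 and the build Sscrofa11.1 are named, without roles, per the submitters' processing notes. The authors' deposited table gives normalized counts, a signal in which each column's counts are divided by a size factor, and their mean, per the file headers. Also deposited by the authors were a log2 fold change with its error, a Wald score, and a p-value with its adjusted p-value. The sources used here do not say what the 3 columns per library stand for, how cells and doublets were filtered, or which annotation was used.

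The size factor of each column was inferred from its values. The smallest positive value was taken as 1 count, and this step was refined over the whole column. Multiplied by the inferred factor, every value of the 6 columns (100%) was a whole number within 0.01. The counts used here rest on that inference. Because each group has 1 library, a count test over the columns would not test the treatment and was not run. A gene's level is its counts summed over a library's columns, divided by the summed size factors; the log2 ratio is NO donor over control with no pseudocount, and a library at 0 counts is set to 3. Intervals are exact Poisson (levels) and Clopper-Pearson (ratios, shares), at 95%. The ratio and interval were tested on simulated Poisson counts, for genes at or above the median level. Such counts hold counting error only, so the simulation says nothing on wider variation or on genes below that level. Python 3.11.15, scipy 1.17.1 and edgeR 4.0.16 (TMM only) were used.

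The members and lists were chosen with earlier results of these data known. Genes described in full were, per role group, up to 2 with the highest and 2 with the lowest ratio at or above the median level, and 4 and 4 of the other pathway genes, with HSPA5, HSP90B1 and XBP1; further members, and further genes of the list, were named after their values were seen. All 98 members matched the RefSeq annotation of Sscrofa11.1; 29 overlap a gene on the opposite strand and 4 a gene on their own, so their counts may hold reads of another gene. Paralogues can share reads. Protein motifs that had been planned were not used here.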

Additional observations from a re-analysis of the deposited data

How the results depend on the processing

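Total count scaling moved the counts most. It gave 52 members higher, 12 lower and a median of 0.54, turned the log2 ratio of the members' sum from −0.41 to 0.18, and gave 81 other pathway genes higher and 16 lower with a median of 0.64; TRAPPC5 turned from −0.52 to 0.078, since this scaling adds 0.60 to every log2 ratio. A size rule of 1 gave 8 members higher and 14 lower and 11 and 21 other pathway genes, and a rule of 0.3 gave 28 members higher. TMM scaling gave 16 members higher and 24 lower, and the authors' deposited fold change 16 and 25. Leaving out each of the 6 columns gave 14 to 17 members higher and 25 to 26 lower, a median of −0.08 to −0.04 and a log2 ratio of the sum of −0.42 to −0.40; for the other pathway genes these settings gave 36 to 39 higher, 39 to 42 lower and a median of 0.02 to 0.06. No paired analysis was possible because each group has 1 library and nothing in the labels pairs the columns of the libraries. With 1 library per group, variation between cultures was not measured, and genes with few counts, such as SEC24C and DERL3, were too low to compare.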
